A study of Mus musculus with 20 samples.

Results

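Major histocompatibility complex (MHC) class II genes were followed in mouse liver after an injection of IL-1β, a cytokine that starts inflammatory signaling. The members were the 7 gene symbols H2-Aa, H2-Ab1, H2-Eb1, H2-DMa, H2-DMb1, Cd74 and Ciita, taken by name from a list. No measured value entered the rule, but the members were chosen with earlier results of these data known. They matched 8 of the 37681 gene rows of each count table, because Ciita has a second row, and 7 rows were among the 15578 genes tested. The samples were livers of 10 male C57/B6J mice aged 12 weeks, collected 4 hours after 5 mice received IL-1β at 20 µg/kg (the ILB mice, ILB_9577, ILB_9578, ILB_9579, ILB_9582 and ILB_9583) and 5 received saline (the saline mice, UNT_9574, UNT_9575, UNT_9576, UNT_9580 and UNT_9584). The labels name no transgene or mutation, and each mouse was a separate animal. Aliquots of the same RNA were sequenced on both the Illumina and the Ion Torrent platform and aligned with 3 algorithms, which gave 6 tables of 10 libraries. The comparison asks how IL-1β changed these genes, with the Illumina STAR table as the main one and the other 5 as a check. Total counts per library were 10568530 to 16439683, and the 8 hepatocyte markers tested together had 72100 to 117000 CPM (counts scaled to the library size) in the main table.

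Class II molecules present peptides from taken-up proteins to CD4+ T cells. An alpha and a beta chain form the peptide groove, the invariant chain Cd74 escorts the pair through the cell and blocks the groove, and the DM proteins exchange the remaining Cd74 fragment for antigen peptides. Transcription of these genes depends on Ciita, a coactivator that binds no DNA itself but joins the factors bound to the X and Y boxes of class II promoters. In liver, class II is made mostly by Kupffer cells, dendritic cells, B cells and, at lower levels, sinusoidal endothelium. Since whole liver was measured, fewer cells of a type and less RNA per cell cannot be told apart.

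Promoter windows were taken from RefSeq (GRCm38.p6), and those used covered 8 of 12 class II genes and 4 of the 7 members. H2-Ab1, Cd74 and Ciita had no window among those used, which does not show that RefSeq lacks them. The search was for an X box core (GNAAC) followed 20 to 30 bases later by a Y box (TGATTGG), on either strand, in windows from 250 bases before to 50 after the start site. These letters and their spacing were chosen after reading the sequences of the class II genes. The ordered pair was found in 6 of the 8 class II genes and in 0.323% of the 32851 windows used. GNAAC alone was in 84.8% of these windows and TGATTGG alone in 7.82%. The pair was in H2-Aa, H2-Eb1, H2-DMb1, H2-Ob, H2-Oa and H2-Eb2, and not in either window of H2-DMa or in that of H2-DMb2. The 150 bases before the start site are shown for the members that hold the pair and for H2-Ob, the other class II gene that fell, with both boxes in capitals:
H2-Aa (chr17:34287824-34287973, minus strand): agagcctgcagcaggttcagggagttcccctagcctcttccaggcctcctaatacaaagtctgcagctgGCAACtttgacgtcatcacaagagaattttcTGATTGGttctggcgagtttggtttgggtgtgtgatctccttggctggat
H2-Eb1 (chr17:34305717-34305866, plus strand): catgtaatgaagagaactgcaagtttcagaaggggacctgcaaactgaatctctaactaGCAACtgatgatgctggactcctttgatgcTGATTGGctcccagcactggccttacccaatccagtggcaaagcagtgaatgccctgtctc
H2-DMb1 (chr17:34153041-34153190, plus strand): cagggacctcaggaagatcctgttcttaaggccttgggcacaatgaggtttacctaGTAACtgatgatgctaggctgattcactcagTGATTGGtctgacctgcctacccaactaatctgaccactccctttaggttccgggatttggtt
H2-Ob (chr17:34238755-34238904, plus strand): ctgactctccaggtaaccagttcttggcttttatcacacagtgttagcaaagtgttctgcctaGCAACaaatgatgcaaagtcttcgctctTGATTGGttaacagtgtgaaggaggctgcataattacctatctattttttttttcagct

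The search itself required this order of the boxes and limited the distance between them, so sharing these is not a finding. H2-Aa and H2-DMb1 had 26 bases between the boxes, H2-Eb1 had 25 and H2-Ob had 23. The Y box began 50 bases before the start site in H2-Aa, 61 in H2-Eb1, 63 in H2-DMb1 and 59 in H2-Ob. A match of letters is a description of the window and does not show that a factor was bound in these livers.

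Transcripts of the class II alpha and beta chains were lower after IL-1β. Called lower in the main table were 3 of the 7 members (adjusted p below 0.05 from edgeR's quasi-likelihood test over all genes tested) and 0 were called higher, with 0 higher at an unadjusted p under 0.05 as well. Of all genes tested, 22.9% were called lower and 22.7% higher. The called members were H2-Aa, H2-Ab1 and H2-Eb1, which fell by 34.2%, 27.9% and 31.1%. All 7 members had a negative fold change in all 6 tables, with a median log2 value of -0.54 in the main table against 0.0 for all genes tested. Of the 7, 5 lie in the same stretch of chromosome 17, and the members were chosen as 1 pathway, so they are not independent of each other.

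H2-Aa (ENSMUSG00000036594, chromosome 17, 34406276 to 34424772, minus strand, mm9) encodes the alpha chain of I-A, the main class II molecule of this strain. Its counts were 343, 327, 318, 244 and 266 in mice UNT_9574, UNT_9575, UNT_9576, UNT_9580 and UNT_9584, and 240, 111, 122, 255 and 144 in mice ILB_9577, ILB_9578, ILB_9579, ILB_9582 and ILB_9583. By reads, 4 of the ILB mice lay below every saline mouse and only ILB_9582 overlapped them, and after TMM scaling ILB_9577 (22.8 CPM) also passed the lowest saline mouse (21.7). The log2 fold change was -0.60 (standard error 0.20, adjusted p = 0.0238 from edgeR). H2-Aa was called in each of the 6 tables, with log2 fold changes of -0.60 to -0.51. In the main table the call was lost without ILB_9578 (adjusted p = 0.0557), ILB_9579 (0.0607) or ILB_9583 (0.0583), the 3 ILB mice with the lowest counts.

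H2-Ab1 (ENSMUSG00000073421, 34400154 to 34406363, plus strand) encodes the I-A beta chain, the partner of H2-Aa. It had 235, 234, 233, 191 and 166 reads in the saline mice and 147, 99, 117, 195 and 115 in the ILB mice, in the same mouse order. Again ILB_9582 was the only ILB mouse inside the saline range. The log2 fold change was -0.47 (standard error 0.16, adjusted p = 0.0285 from edgeR), and the gene was called in 5 of 6 tables, with an adjusted p of 0.0547 in the Ion Torrent GSNAP table. Omitting any 1 of UNT_9574, UNT_9575, UNT_9576, ILB_9578, ILB_9579 or ILB_9583 ended the call, with adjusted p of 0.0545 to 0.0716 from edgeR. The 2 genes lie tail to tail and share 17 exonic bases on opposite strands, and whether the counting used strand is not stated.

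H2-Eb1 (ENSMUSG00000060586, 34442828 to 34453144, plus strand) encodes the beta chain of the second class II molecule, I-E. Its reads numbered 223, 199, 195, 164 and 166 in the saline mice and 149, 84, 85, 177 and 82 in the ILB mice. All ILB mice except ILB_9582 were below the saline range, and ILB_9578, ILB_9579 and ILB_9583 were near the same low level. The log2 fold change was -0.54 (standard error 0.20, adjusted p = 0.0390 from edgeR), and the exception among the 6 tables was Illumina GSNAP (adjusted p = 0.0992). The call was lost without any 1 of the same 6 mice as for H2-Ab1 (adjusted p = 0.0649 to 0.0990 from edgeR). The alpha chain of I-E is a pseudogene in this strain, and H2-Ea-ps was at 0 reads in all 10 libraries of the main table, which allows up to 3 reads over them.

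**Figure D1:**
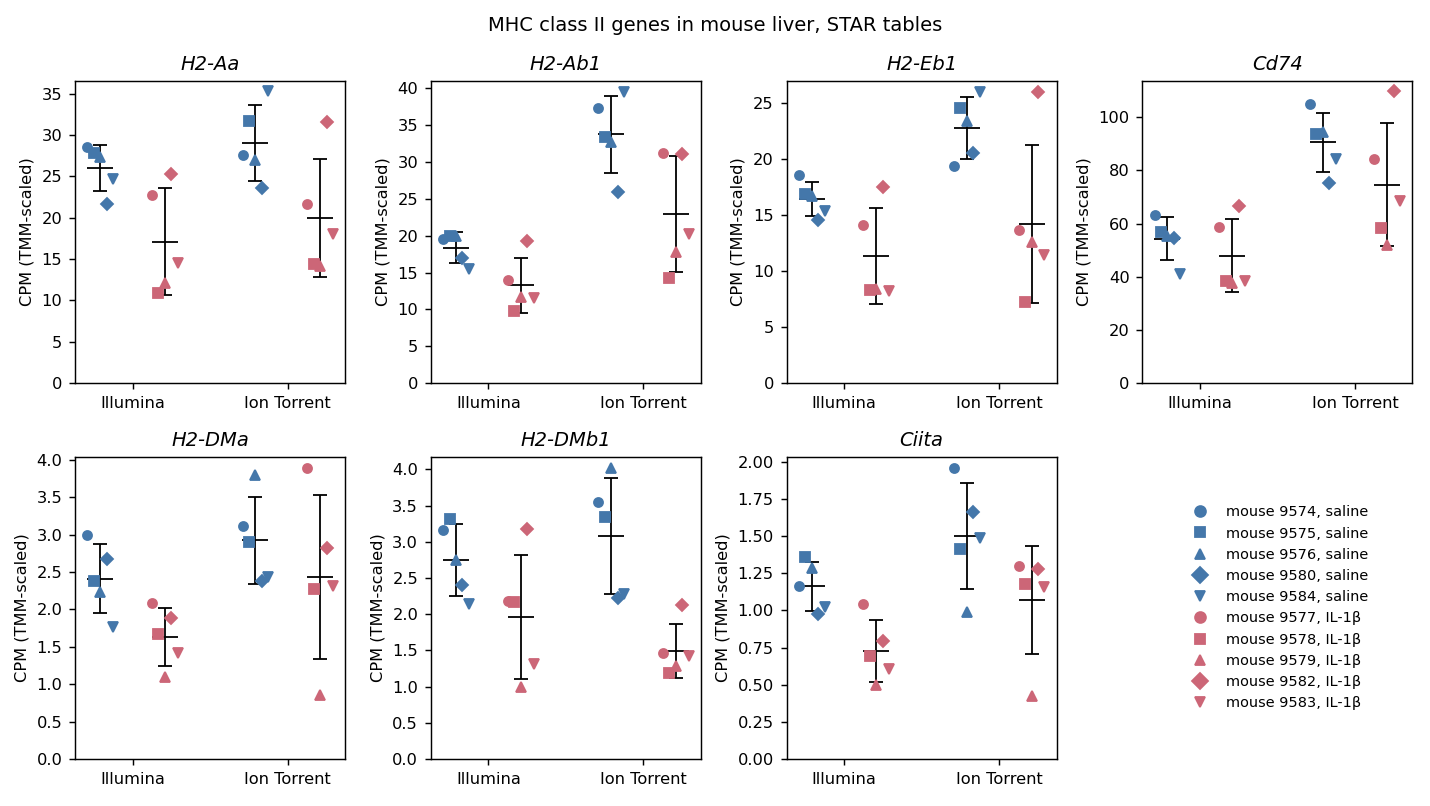
CPM after TMM scaling (y axis, linear from 0) of each class II gene in every mouse, by platform, with saline in blue and IL-1β in red and black bars for the mean ± SD (n = 5). In the Illumina data, mouse ILB_9582 (red diamond) sits among the saline mice for H2-Aa, H2-Ab1 and H2-Eb1 and above them for Cd74, while ILB_9578, ILB_9579 and ILB_9583 are the lowest 3 for these genes.

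Cd74 (ENSMUSG00000024610, chromosome 18) encodes the invariant chain and was the most abundant member. It had 761, 669, 644, 615 and 442 reads in the saline mice and 619, 391, 379, 671 and 383 in the ILB mice. Here 2 ILB mice, ILB_9577 and ILB_9582, were inside the saline range by reads, ILB_9582 was above it after TMM scaling (66.5 against at most 63.4 CPM), and UNT_9584 was the lowest saline mouse. The log2 fold change was -0.18 (standard error 0.17, adjusted p = 0.428 from edgeR), and no table called it (adjusted p = 0.179 to 0.531).

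The chains fell relative to Cd74 within the same library. This ratio, which was chosen after the values were seen, does not depend on how libraries are scaled. H2-Aa reads per Cd74 read were 0.451, 0.489, 0.494, 0.397 and 0.602 in the saline mice and 0.388, 0.284, 0.322, 0.380 and 0.376 in the ILB mice of the main table. Every ILB mouse was below every saline mouse, ILB_9577 and ILB_9582 included. The difference in mean log2 ratio was -0.47, from -1.05 ± 0.219 to -1.53 ± 0.195 (SD, n = 5), with a two-sided exact permutation p of 0.00794, the smallest that 5 mice against 5 allow, and an adjusted p of 0.0159 over the 6 ratios tested. H2-Ab1 over Cd74 differed by -0.30 and H2-Eb1 over Cd74 by -0.40, both with groups that did not overlap and the same adjusted p. The gaps were very small. For H2-Ab1, UNT_9574 and ILB_9579 both had 0.309 (log2 -1.695 and -1.696). For H2-Eb1, UNT_9580 had 0.267 and ILB_9582 had 0.264. The 3 ratios share Cd74 as denominator and so are not independent.

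Ion Torrent libraries gave ratios in the same direction that did not pass the test. The log2 differences with STAR were -0.27 for H2-Aa, -0.29 for H2-Ab1 and -0.48 for H2-Eb1, each with an adjusted p of 0.159 from the exact permutation test. Groups overlapped there, as H2-Eb1 over Cd74 was 0.185 in mouse UNT_9574 and 0.243 in mouse ILB_9579. In the Illumina GSNAP table only H2-Aa over Cd74 passed (adjusted p = 0.0476 from the exact permutation test), and H2-Ab1 and H2-Eb1 had 0.0714 and 0.0794. All 3 passed in Illumina STAR + Bowtie2 (adjusted p = 0.0238 from the same test), and none did in any Ion Torrent table (0.119 to 0.317). Over 45 alternatives for the 3 ratios, the difference was negative in 45 and had an adjusted p below 0.05 in 32. Most of these were the 10 fits per ratio that left 1 mouse out of the main table. They reuse groups that already did not overlap, so they add little to the main result. In the main table, H2-Ab1 over Cd74 lost its call without ILB_9578 or without UNT_9584, both at an adjusted p of 0.0635. Among the other 3 pairs, H2-Ab1 over H2-Aa, H2-Eb1 over H2-Aa and H2-DMb1 over H2-DMa had adjusted p of 0.298 to 0.992 from the same test in the main table. H2-Eb1 over H2-Aa passed it in Illumina STAR + Bowtie2 (a log2 difference of 0.10, adjusted p = 0.0238) and had the opposite sign without a call in the 3 Ion Torrent tables.

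**Figure D2:**
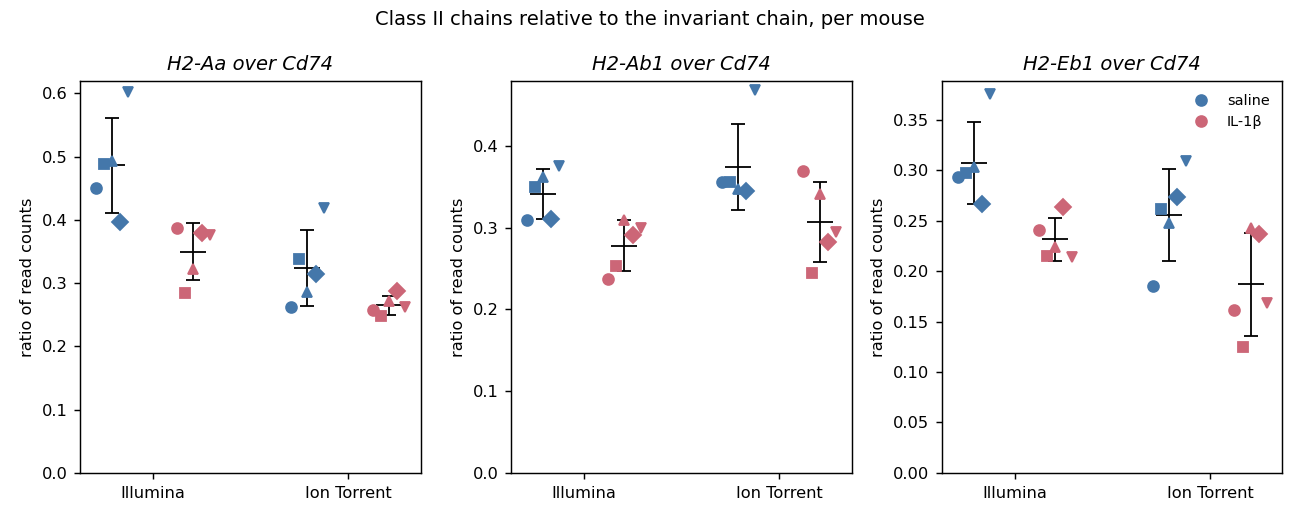
Reads of H2-Aa, H2-Ab1 and H2-Eb1 per Cd74 read (y axis, linear from 0) in the STAR table of each platform, 1 point per mouse with the same symbols as in the plot of members by mouse, and black bars for the mean ± SD (n = 5). In the Illumina panels all 5 IL-1β points lie below all 5 saline points, barely so for H2-Ab1 (UNT_9574 and ILB_9579 both 0.309). In the Ion Torrent panels the groups overlap.

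H2-DMa and H2-DMb1 encode the alpha and beta chains of DM, the peptide exchanger. H2-DMa (ENSMUSG00000037649, chromosome 17, 34272127 to 34276046) had 36, 28, 26, 30 and 19 reads in the saline mice and 22, 17, 11, 19 and 14 in the ILB mice. Only mouse UNT_9584 was among the ILB values. The log2 fold change was -0.56 (standard error 0.23, adjusted p = 0.0564 from edgeR), it was not called in any table, and without UNT_9584 it was called in the main table (-0.65, adjusted p = 0.0299).

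H2-DMb1 (ENSMUSG00000079547, 34290017 to 34297168) had 38, 39, 32, 27 and 23 reads in the saline mice and 23, 22, 10, 32 and 13 in the ILB mice of the main table. The groups overlapped through ILB_9577 and ILB_9582 (after TMM scaling also through ILB_9578), and the log2 fold change was -0.49 (standard error 0.27, adjusted p = 0.166 from edgeR). In the Ion Torrent STAR table its counts were 49, 45, 53, 28 and 29 against 18, 14, 15, 25 and 16, without overlap, and the log2 fold change was -1.04 (standard error 0.26, adjusted p = 0.00358 from edgeR). It was called in all 3 Ion Torrent tables and in no Illumina table. Reads can be split between H2-DMb1 and its close paralog H2-DMb2, so both counts are uncertain.

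Ciita (ENSMUSG00000022504, chromosome 16, 10480237 to 10527657), the coactivator, was the least abundant member. Its counts were 14, 16, 15, 11 and 11 in the saline mice and 11, 7, 5, 8 and 6 in the ILB mice. Only ILB_9577 reached the saline range. The log2 fold change was -0.67 (standard error 0.27, adjusted p = 0.0551 from edgeR), just outside the threshold. Ciita was called in 3 of 6 tables, with log2 fold changes of -0.92 in Illumina GSNAP, -0.97 in Illumina STAR + Bowtie2 and -0.75 in Ion Torrent STAR + Bowtie2, and in both Illumina ones the groups did not overlap. The second Ciita row (ENSMUSG00000075404, 10489876 to 10492330), which lies inside the first, had 4 reads over the 10 libraries of the main table and was not tested.

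Levels were also compared between members as CPM per kilobase of exon. In saline mice of the main table, Cd74 had 38.5 ± 5.77 (SD, n = 5), H2-Eb1 13.8 ± 1.29, H2-Aa 13.1 ± 1.42, H2-Ab1 11.2 ± 1.26, H2-DMb1 1.86 ± 0.337, H2-DMa 1.47 ± 0.282 and Ciita 0.187 ± 0.0266. The range of H2-Aa (10.9 to 14.4) overlapped that of H2-Eb1 (12.3 to 15.6) and that of H2-Ab1 (9.38 to 12.2), while the latter pair did not overlap each other. H2-DMb1 and H2-DMa overlapped. The ranges of Cd74, of the chains as a group, of DM and of Ciita were separate. In the Ion Torrent STAR table these 4 levels were also separate, but the means of H2-Ab1 (20.5 ± 3.16) and H2-Eb1 (19.2 ± 2.33) stood above that of H2-Aa (14.6 ± 2.29), and the ranges of all 3 chains overlapped. Levels across tables were normalized separately and were not tested.

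Other tables gave similar counts of called members. They were 3 of 7 in Illumina GSNAP (23.9% of all genes were called lower there), 4 in Illumina STAR + Bowtie2 (24.4%), 3 in Ion Torrent GSNAP (23.9%), 4 in Ion Torrent STAR (21.8%) and 5 in Ion Torrent STAR + Bowtie2 (24.0%). In the Ion Torrent STAR table, the log2 fold changes were -0.54 for H2-Aa, -0.56 for H2-Ab1 and -0.68 for H2-Eb1 (adjusted p = 0.0307, 0.0267 and 0.0270 from edgeR). The 2 libraries of mouse UNT_9584 deviated together least, with a correlation across genes of 0.235 against 0.522 to 0.690 for the other 9 mice. Without UNT_9584, the Ion Torrent STAR table called 1 member, H2-DMb1, and the main table called 4. The share of all genes called lower in these fits is not given. Both platforms measured the same RNA, so the second does not add mice.

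**Figure D3:**
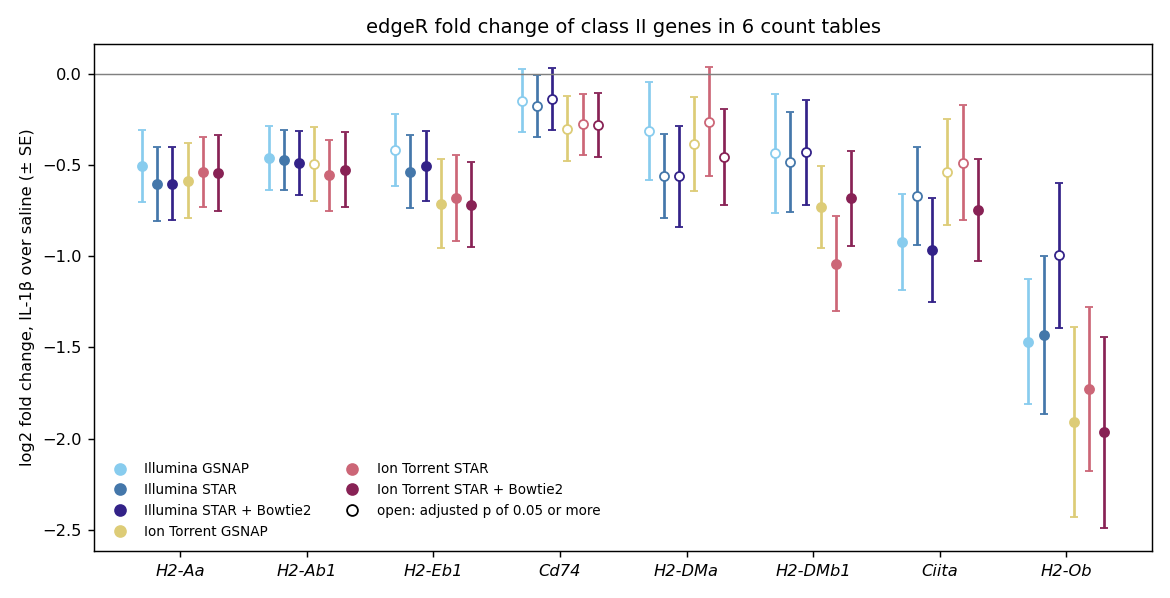
Log2 fold change of IL-1β over saline (y axis, bars ± standard error from edgeR) for the 7 members and H2-Ob in the 6 count tables, with filled points for an adjusted p below 0.05. All points of the 7 members are below 0, H2-Aa is filled in 6 tables and Cd74 in none.

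Whether the effect of IL-1β differed between platforms was tested with the 20 STAR libraries in 1 fit with the mouse as a replicate block. Of the 7 members, 0 had a platform-by-treatment term with an adjusted p below 0.05 from edgeR, and 0 had an unadjusted p under 0.05, while 0.00642% of all genes tested were called. The largest term was that of H2-DMb1, at -0.52 (standard error 0.28, unadjusted p = 0.0736 from edgeR), which means a larger fall in the Ion Torrent data. With GSNAP, the term of H2-Eb1 was -0.32 (unadjusted p = 0.0328, adjusted p = 0.601 from edgeR), the lowest unadjusted p of any member and aligner.

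The low ILB mice were low for all chains at once. Over H2-Aa, H2-Ab1, H2-Eb1 and Cd74, the mean log2 CPM centered on the 10 libraries was -0.65 in ILB_9578, -0.55 in ILB_9579 and -0.49 in ILB_9583, but 0.08 in ILB_9577 and 0.36 in ILB_9582. Saline mice had 0.41, 0.34, 0.32, 0.12 and 0.05 in UNT_9574, UNT_9575, UNT_9576, UNT_9580 and UNT_9584. Ion Torrent libraries ordered the ILB mice in the same low and high sets, with -0.83, -0.60 and -0.40 against -0.04 and 0.42. The ILB mice thus covered a wider range than the saline mice on both platforms.

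Genes with a profile most like this one were sought among 9274 other genes averaging 50 reads or more, by the root mean square difference over the 10 libraries of the main table. A gene with no variation would have 0.388. The nearest were Pion (0.154), Bgn (0.199), Abcc3 (0.205), Abca3 (0.207), Prelp (0.221), Steap3 (0.226), Pskh1 (0.226) and Lrsam1 (0.229). Bgn and Prelp encode matrix proteoglycans, and Abcc3 is an efflux transporter of bile acids and conjugates. In the Ion Torrent STAR table, where a flat gene would have 0.436, the same genes had 0.210 to 0.447, so Lrsam1 was no closer there than a flat gene. For comparison, H2-DMa had 0.246, Ciita 0.226 and H2-DMb1 0.287 in the main table.

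Among the 5 other class II genes, H2-Ob, the beta chain of the DM inhibitor DO, was lower with IL-1β. It had 15, 11, 6, 7 and 8 reads in the saline mice and 2, 2, 6, 1 and 4 in the ILB mice. The groups met only at 6 reads, in UNT_9576 and ILB_9579. Its log2 fold change was -1.43 (standard error 0.43, adjusted p = 0.0135 from edgeR), and it was called in 5 of 6 tables. H2-DMb2 was not called (-0.62 in the main table and 0.27 in Ion Torrent STAR), and H2-Oa, H2-Eb2 and H2-Ea-ps had 14, 4 and 0 reads over the 10 libraries and were not tested.

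Genes that act around class II moved in both directions. Of 12 tested genes for class II processing, which cut Cd74 and antigen or turn over the molecule, 3 were called higher and 2 lower, with a median log2 fold change of -0.04. The higher ones were the proteases Ctsl (0.87) and Lgmn (0.79) and the tetraspanin Cd9 (0.64). The lower ones were March8 (-0.80), a ubiquitin ligase that sends class II to degradation, and the protease Ctsh (-0.41). Ctss, the main Cd74-cutting protease of dendritic and B cells, had -0.16 (adjusted p = 0.531 from edgeR).

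Factors that bind class II promoters or work with Ciita were 12, of which 7 were called higher and 2 lower, with a median of 0.37. Rfx5, the DNA-binding subunit of the X box complex RFX, had a log2 fold change of -0.80 (standard error 0.18, adjusted p = 0.00191 from edgeR). Its partners Rfxank (1.06) and Rfxap (0.66) rose. For the Y box factor NF-Y, Nfya rose (0.81), while Nfyb had -0.04 and Nfyc 0.10 without a call. The acetyltransferase Kat2b had the largest change of the list, at -1.23. Rfx5 and Kat2b fell and Rfxank, Rfxap and Nfya rose in the Ion Torrent STAR table too.

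Of 14 tested genes upstream of Ciita, 6 were called higher and 3 lower, with a median of 0.58. Irf1, which binds the interferon-responsive promoter of Ciita, had a mean of 41.5 CPM in saline and 19.1 in ILB mice, a log2 fold change of -1.12 (standard error 0.17, adjusted p = 7.27e-05 from edgeR). Irf2, which binds the same kind of site, fell as well (-0.68), and so did Il10ra (-0.77). The interferon-γ receptor chain Ifngr2 (0.94) and the kinase Jak1 (0.53), which acts at that receptor, rose. Socs3 (2.30) and Stat3 (1.81), which act in IL-6 type signaling, rose most, and Irf8 rose by 0.74. Ifng itself had 3 reads over the 10 libraries. Among 5 tested co-stimulation genes, 1 was higher (Icosl, 1.54) and 1 lower (Cd83, -1.26, at a mean of 4.90 reads), both named after their values were seen because their counts are low.

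**Figure D4:**
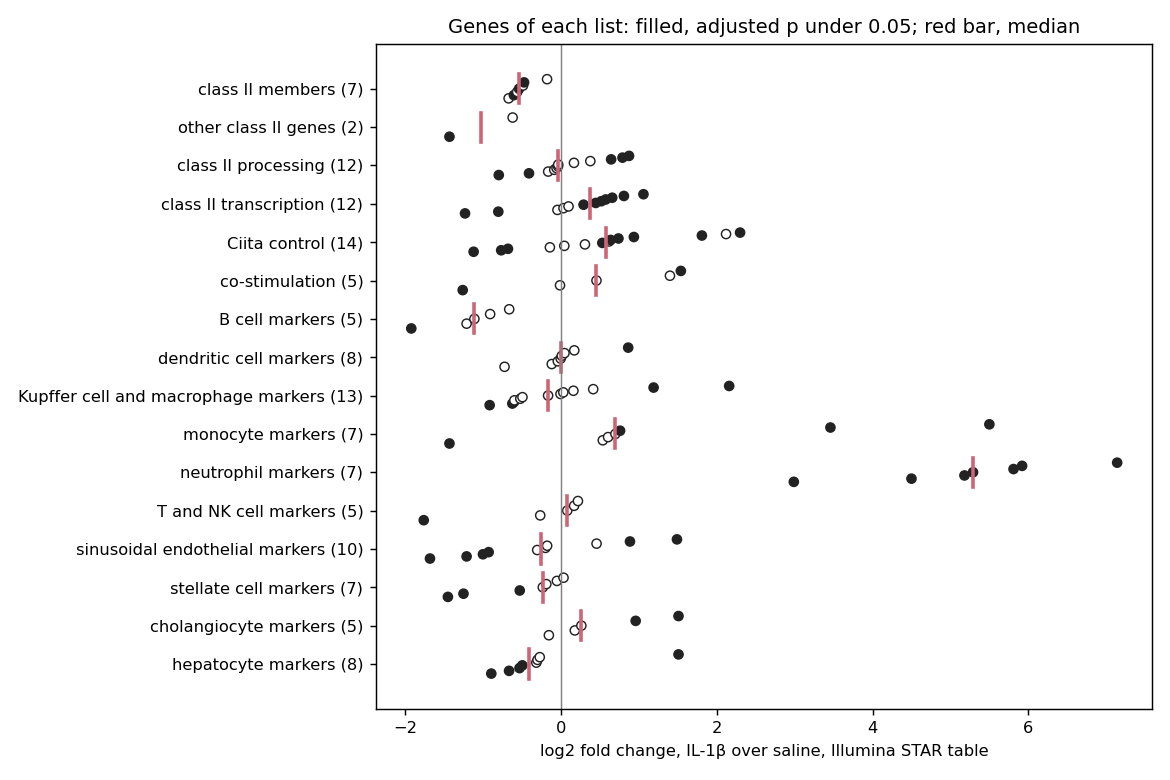
Log2 fold change of IL-1β over saline in the Illumina STAR table (x axis) for each tested gene of every list (rows, number of genes in brackets), with filled points for an adjusted p below 0.05 from edgeR and a red bar at the list median. The class II members form a narrow group below 0, genes of transcription and of Ciita control lie on both sides, and Ngp, at 0 reads in saline, is drawn at its fitted value.

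Markers of the cells that can carry class II were read beside these values, and their part in the result was not tested. Of 13 tested Kupffer cell and macrophage markers, 2 were called higher (the scavenger receptor Marco had 2.16) and 3 lower (Vsig4, -0.91, Csf1r, -0.62, and Clec4f, -0.60), with a median of -0.16. Their summed level was 241 to 362 CPM in saline and 224 to 375 in ILB mice. The 8 tested dendritic cell markers had a median of 0.0, 1 called higher (Itgax, 0.86) and 0 lower, and sums of 11.5 to 13.8 against 10.1 to 15.2 CPM. The Kupffer and the dendritic sums both overlapped between treatments.

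B cell markers were low throughout. Only 5 of 12 could be tested, all 5 had a negative fold change (median -1.11), and 1 was called lower, Cd79a (-1.92, at a mean of 3.90 reads), named after its values were seen. The sum of the 5 was 7.07 to 15.8 CPM in saline mice. It was 5.31, 4.63, 5.56, 9.82 and 2.11 in ILB_9577, ILB_9578, ILB_9579, ILB_9582 and ILB_9583. In the Ion Torrent STAR table the sums of these ILB mice were 7.62, 4.98, 5.29, 16.1 and 4.81 CPM. ILB_9577, with high class II, was below ILB_9579, with low class II, in the main table and above it in Ion Torrent STAR. ILB_9582, highest in class II, had the highest ILB sum in both. How these sums relate to class II was not tested. Most of the sum in the main table was Ighm (means of 6.71 CPM in saline and 4.21 in ILB mice), which was not called (-0.66, adjusted p = 0.206 from edgeR). Ms4a1 and Pax5, which define the type, had 21 and 6 reads over the 10 libraries. Called lower in Ion Torrent STAR were 3 of the 5, and H2-Ob is itself made largely by B cells.

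Neutrophil markers rose in all 7 tested genes, with sums of 0.978 to 3.66 CPM in saline and 46.4 to 111 in ILB mice. Of 7 monocyte markers, 3 were called higher and 1 lower (Cx3cr1, -1.43), with sums of 1240 to 1500 against 2180 to 2720 CPM, most of it Fn1, which hepatocytes also express. Of 5 T and NK cell markers, 1 was lower (Cd4, -1.76). Sinusoidal endothelial markers had 2 of 10 higher and 4 lower (Kdr, -1.68, was the lowest), stellate cell markers 0 of 7 higher and 3 lower, cholangiocyte markers 2 of 5 higher and 0 lower, and hepatocyte markers 1 of 8 higher and 4 lower. Each count of 0 given for these lists was also 0 at an unadjusted p under 0.05 from edgeR. The ILB mice with high class II, ILB_9577 and ILB_9582, had neutrophil sums of 64.7 and 99.1 CPM and Kupffer sums of 375 and 302 CPM, and the other 3 had 46.4 to 111 and 224 to 330. Cd4, Cx3cr1 and Itgax have mean counts under 20 and were named after their values were seen.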

How the data were processed

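RNA of 10 mouse livers was sequenced on Illumina and Ion Torrent (20 libraries). The authors aligned reads to mm9 with GSNAP, STAR 2.5.1b or STAR followed by Bowtie2 2.2.9, removed rRNA and mitochondrial reads, re-sampled libraries within a table to equal gene-mapping reads and counted these per Ensembl v67 gene with PORT v0.8.1-beta. The deposited values are whole-number counts. Whether strand was used, and whether Illumina counts are read pairs, is not stated, and both are called reads. Normalization was separate for each table, so treatments were compared inside 1 table, except in the platform-by-treatment fit, which joins the tables of both platforms and tests how the treatment difference in 1 departs from that in the other.

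Genes reaching 5 reads in 5 of 10 libraries of any table, 15578 in all, were fitted with edgeR 4.0.16 (quasi-likelihood, TMM, Benjamini-Hochberg over all). For genes averaging 10 reads or more, the median change in the main table was -0.12 (log2) unscaled and 0.0046 with TMM, and changes are relative to TMM. DESeq2 1.42.0, limma 3.58.1, the study's Mann-Whitney test, other filters and omitted mice were alternatives. Fits were tested on simulated data. Ratios used exact permutation tests over mice (252 splits, two-sided). Mouse labels pair the libraries of 1 RNA: deviations from the treatment mean correlated at 0.235 to 0.690 over 10841 genes, best with the own library for 9 of 10 mice. The members, lists and genes were chosen with earlier results of these data known. The rule named all members, the other class II genes, the 8 most alike genes, and per list up to 4 called genes of largest change with a mean count of at least 20. Further list genes were named after their values were seen. R 4.3.3 and Python 3.11.15 were used. Positions and exon lengths come from GENCODE gene models on the same build (NCBIM37). PORT's own steps cannot be varied here. Single values of some list genes are not reported here.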

Additional observations from a re-analysis of the deposited data

Results flagged for a closer look

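Ciita in the Ion Torrent STAR table had 1 ILB mouse far from the others: ILB_9579 had 0.427 CPM, and the other 4 ILB mice had 1.16 to 1.30. The gap was 0.84 of the range of the group, above the critical value of 0.71 for 5 samples. This was 1 of 36 groups of 5 mice examined for the class II genes, and chance sets apart about 1 in 20. In the Illumina STAR table the same mouse had 5 Ciita reads, also the lowest of its group.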

How the results depend on the processing

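The 7 members kept a negative fold change under all of their 21 or 22 alternatives, while the number called lower, 3 in the main table, depended on single mice. It was 0 without ILB_9578, ILB_9579 or ILB_9583, 1 without UNT_9574, UNT_9575 or UNT_9576, and 5 without ILB_9577, so that the 10 fits that left out 1 mouse ranged from 0 to 5. The 3 saline mice and 3 ILB mice named here also carry the calls of H2-Ab1 and H2-Eb1. Ion Torrent STAR + Bowtie2, limma-voom and no TMM scaling called 5, the Mann-Whitney test 1 (H2-Aa, adjusted p = 0.0406), and Ion Torrent STAR without UNT_9584, added after seeing the data, 1. DESeq2 and no filter gave 3, and a mean count of at least 20 gave 4 but left Ciita out. Outside the plain fits of the 6 tables, the share of all genes called lower is not given. These counts therefore cannot be told apart from a change in the general rate of calls. Without TMM, the median change of genes averaging 10 reads or more was -0.12 (log2), so that fit leans lower for all genes. Among the lists, B cell markers called lower went from 1 to 3 in Ion Torrent STAR and 2 without UNT_9584, monocyte markers called lower from 1 to 0 without UNT_9584, dendritic cell markers called higher from 1 to 0 in Ion Torrent STAR (1 at an unadjusted p under 0.05 from edgeR), and T and NK cell markers called higher from 0 to 1 there. The cause was not tested. Without the replicate block, 0 members had a platform-by-treatment term from edgeR, and that of H2-DMb1 was -0.54 against -0.52 with the block. Terms that turned sign without a call were those of H2-Aa (-0.080) and H2-DMa (-0.073) with GSNAP and of H2-Ab1 (0.044) without UNT_9584. Ratios that turned sign without a call were H2-Ab1 over H2-Aa in Ion Torrent STAR (-0.021), H2-Eb1 over H2-Aa in Ion Torrent GSNAP (-0.18), STAR (-0.21) and STAR + Bowtie2 (-0.21), and H2-DMb1 over H2-DMa in Illumina STAR + Bowtie2 (0.038) and in 6 fits without 1 mouse (the 10 such fits ranged from -0.15 to 0.075). Counts of 5 to 39 reads per library limit what Ciita, H2-DMa and H2-DMb1 can show.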
